A study of Mus musculus with 6 samples.

Results

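The 10 genes described here mark the mesenchymal and pericyte niche of the bone marrow: Cxcl12, Kitl, Pdgfra, Pdgfrb, Lepr, Vcam1, Acta2, Tagln, Igfbp3 and Igfbp5. They were chosen by name, and each matched 1 row of the 21307 in the deposited expression table. RNA sequencing compared B cells cultured from the bone marrow of pre-tumoral mice, 6 to 8 weeks old and of a C57BL/6 x 129S1/SvlmJ background, in 2 conditions of 3 libraries each. All 6 libraries carry the same alleles per their characteristics: the E-mu-myc transgene, which drives MYC from an immunoglobulin enhancer, loxP-flanked Prmt5, and CreER, a Cre recombinase that needs tamoxifen to act. The promoter of CreER is not stated in the labels. In the 4-OHT condition the cells received 50 nM of the tamoxifen metabolite 4-hydroxytamoxifen for 24 h, which deletes Prmt5, a protein arginine methyltransferase, and in the control condition they received ethanol. Both were then washed and kept for 5 further days, with IL-7 in the culture. The titles call the ethanol libraries WT and the 4-OHT libraries PT, and the design text of the series contrasts wild-type with pre-tumoral mice, but the characteristics give no wild-type genotype.

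The table holds 1 FPKM value per gene and condition (fragments scaled to transcript length and library size). No value therefore has a replicate error, read depth is unknown, and no difference below was tested: each is a difference in size between 2 pooled values. Prmt5 stood at 41.6 FPKM with ethanol and 5.71 FPKM with 4-OHT. All 10 B cell genes of the list used to check the label were detected in both conditions, with a summed level of 1844 FPKM with ethanol and 813 FPKM with 4-OHT. In 4-OHT this was below the sums of the neutrophil list (9 rows, 3604 FPKM) and the macrophage list (11 rows, 1424 FPKM), genes of other cells than the label names. In ethanol it was above both, at 431 FPKM for the neutrophil list and 642 FPKM for the macrophage list. The lists hold different genes at different levels, so their sums do not measure shares of cells.

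Niche cells of the marrow are perivascular stromal cells that hold blood progenitors in place and feed them. They secrete the chemokine CXCL12 and the growth factor SCF (the product of Kitl), carry the PDGF receptors and the leptin receptor, and display the adhesion protein VCAM1, which developing B cells bind. Pericytes and smooth muscle cells, which wrap vessels, make contractile proteins such as smooth muscle actin and transgelin. None of these genes is a textbook marker of the B lineage.

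All 10 genes had a higher FPKM in 4-OHT than in ethanol, as did 53.1% of the 15756 rows above 0 in both conditions. Their summed level was 13.7 FPKM with ethanol and 121 FPKM with 4-OHT, an 8.87-fold difference. Igfbp3 made up 37.4% of the sum in ethanol and 57.0% in 4-OHT, and without it the sums were 8.54 and 52.1 FPKM, 6.10-fold apart. In ethanol 6 of the 10 lay under 1 FPKM, and in 4-OHT 2 did (Kitl and Lepr). In these bulk cultures more cells of a type and more RNA per cell cannot be told apart.

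**Figure D1:**
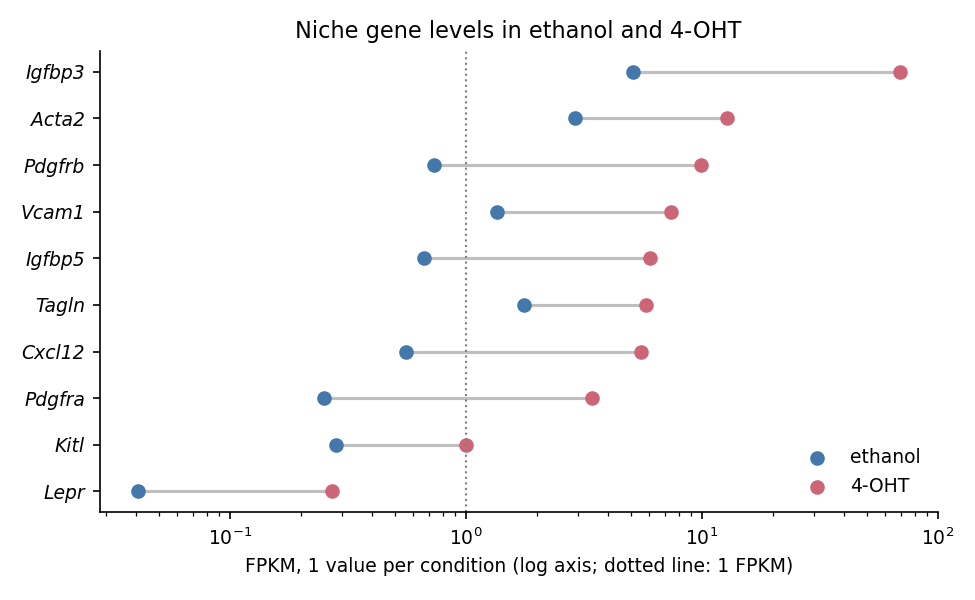
FPKM of the 10 niche genes in ethanol (blue) and 4-OHT (red), 1 pooled value per condition on a log axis, ordered by the 4-OHT value. Each red point lies to the right of its blue point, and Igfbp3 reaches 69.0 FPKM while Lepr stays at 0.270 FPKM.

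The niche signals came first. Cxcl12 (chromosome 6, 117118553 to 117131386, mm9), the chemokine gene that retains progenitors and B cell precursors in the marrow, stood at 0.557 FPKM with ethanol and 5.50 FPKM with 4-OHT. This is 4.18-fold higher after 1 FPKM is added to both values, the scale of every fold below unless another is named, which understates differences between low values. The FPKM values alone differ 9.88-fold. Kitl (chromosome 10, 99478458 to 99563046), the gene of the growth factor that binds the receptor KIT, stood at 0.282 FPKM with ethanol and 0.998 FPKM with 4-OHT. Cxcl12 was thus 1.98 times the level of Kitl in ethanol and 5.52 times in 4-OHT.

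The 250 bases before the Cxcl12 and Igfbp3 starts are shown because these were the signal gene and the IGF-binding gene with the higher FPKM ratio of their pairs (RefSeq, GRCm38.p6, 5′ to 3′ on the strand of the gene). Capitals mark GGGCGG on either strand in Cxcl12 and TATATA in Igfbp3.
Cxcl12, plus strand, chr6:117168285-117168534: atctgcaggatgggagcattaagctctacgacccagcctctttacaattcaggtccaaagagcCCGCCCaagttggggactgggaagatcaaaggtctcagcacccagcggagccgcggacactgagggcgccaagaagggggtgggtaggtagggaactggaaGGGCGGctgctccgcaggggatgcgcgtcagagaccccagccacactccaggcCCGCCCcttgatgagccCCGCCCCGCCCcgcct
Igfbp3, minus strand, chr11:7213924-7214173: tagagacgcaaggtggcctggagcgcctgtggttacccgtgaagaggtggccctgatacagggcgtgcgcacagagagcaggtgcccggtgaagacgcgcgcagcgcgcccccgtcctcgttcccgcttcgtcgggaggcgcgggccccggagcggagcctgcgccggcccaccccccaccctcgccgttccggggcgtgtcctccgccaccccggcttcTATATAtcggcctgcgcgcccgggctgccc
Cxcl12 held 5 matches to GGGCGG, the core letters of an SP1 site, of which the last 2 overlap by 1 base within the 16 bases before the start. At least 1 match stands in 32.7% of the 32851 RefSeq promoter windows of this length. Igfbp3 held TATATA from 30 to 25 bases before the start, which 5.25% of windows hold somewhere, and no GGGCGG. In the windows not printed, Kitl held 3 matches to GGGCGG and 1 of the 2 Lepr windows held 1. Kitl also held TATAAA from 25 to 20 bases before the start (12.4% of windows hold it), and Igfbp5 and Acta2 each held 1 match to CATTCC, the letters of a muscle MCAT element (12.6% of windows). A match is only a run of letters. Of the 10 genes, 7 had an entry that was used. Tagln and Vcam1 had no usable entry. Entries on the chromosome of Pdgfrb were left out for the 10 genes, though not from the 32851 windows, so its promoter was not searched.

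The receptors of the niche signals lay far above or near them in level. Cxcr4, the receptor that B cell precursors use to sense CXCL12, was at 103 FPKM with ethanol and 133 FPKM with 4-OHT, so the level of receptor over ligand went from 185 times in ethanol to 24.2 times in 4-OHT. Cxcr7, now called Ackr3, the scavenging receptor of the same chemokine, was at 0.518 and 3.27 FPKM in that order. Kit, the receptor for the product of Kitl, was at 0.866 FPKM with ethanol and 5.01 FPKM with 4-OHT. Both receptor genes with low ethanol values were thus higher in 4-OHT, by 2.81-fold and 3.22-fold, and Cxcr4 was 1.29-fold higher. Of all 15 genes listed as ligands, receptors or binding partners of the set, 12 could be compared (a mean of at least 1 FPKM and both values above 0), 11 were higher in 4-OHT with 6 at least 2-fold, and Itga4 was lower. Over all 10856 rows compared in this way, 44.9% were higher and 10.4% at least 2-fold higher. Of the 12, 2 (Cxcr7 and Kit) were under 1 FPKM in ethanol and were compared through their 4-OHT value alone.

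On the plus-1 scale, other niche factors differed less, with a median log2 ratio of 0.58 against 0.90 for the ligands, receptors and partners. Of the 16 rows of other niche factors, 8 reached that minimum, with 7 higher in 4-OHT, 1 of them by at least 2-fold, and 1 at least 2-fold lower. Of all compared rows, 10.4% were at least 2-fold higher, which 1 of 8 is near, and 2.58% at least 2-fold lower. Of the 8, 2 were under 1 FPKM in ethanol and were compared through their 4-OHT value alone. By the authors' deposited fold changes, 11 of the 16 were at least 2-fold higher and 1 at least 2-fold lower. Their median log2 fold change there was 1.32, against 1.23 for the ligands, receptors and partners, of which 8 of 14 were at least 2-fold higher. On that scale 24.6% of the 15756 rows above 0 in both conditions were at least 2-fold higher. Csf1, the macrophage growth factor gene, was at 7.73 FPKM with ethanol and 17.9 FPKM with 4-OHT. Il15, a cytokine gene of lymphocyte survival, was at 3.28 and 7.33 FPKM in the same order. Tgfb3 was the compared gene that was lower, at 7.38 FPKM with ethanol and 2.26 FPKM with 4-OHT. Il7, the B-lineage growth factor gene, stayed under 0.2 FPKM in both, at 0.0452 and 0.134 FPKM.

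The PDGF receptor genes kept their level relative to each other. Pdgfra (chromosome 5, 75548316 to 75594229), the receptor gene that marks mesenchymal progenitors, stood at 0.251 FPKM with ethanol and 3.42 FPKM with 4-OHT. Pdgfrb (chromosome 18, 61204804 to 61244721), the receptor gene through which PDGF-B recruits pericytes, stood at 0.730 FPKM with ethanol and 9.88 FPKM with 4-OHT. The level of Pdgfrb was 2.91 times that of Pdgfra in ethanol and 2.89 times in 4-OHT. On the plus-1 scale the genes were 3.53-fold (Pdgfra) and 6.29-fold (Pdgfrb) higher. The authors' deposited table, which has no pseudocount, lists log2 fold changes of 3.77 and 3.76, beside 3.76 for Igfbp3.

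Of the 4 ligand genes of these receptors, 3 were more abundant in ethanol than either receptor gene. Pdgfa was at 3.69 FPKM with ethanol and 11.3 FPKM with 4-OHT, Pdgfb at 3.44 and 8.23 FPKM, and Pdgfc at 1.96 and 5.62 FPKM. Pdgfd was at 0.0119 and 0.185 FPKM. Of the ligands, the 3 above 1 FPKM were thus 2.08-fold to 2.63-fold higher in 4-OHT.

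Both receptor genes sit beside other receptor kinase genes of the same class. Kit follows Pdgfra on chromosome 5 after a gap of 377 kb, and Csf1r, the macrophage growth factor receptor gene, follows Pdgfrb on chromosome 18 after 20.5 kb. Csf1r was at 90.5 FPKM with ethanol and 152 FPKM with 4-OHT, 1.67-fold higher. Flt3, a progenitor receptor gene of this class, was lower, at 3.20 FPKM with ethanol and 1.53 FPKM with 4-OHT. Gsx2 and Cdx1, the nearest rows on the other side of Pdgfra and Pdgfrb, are listed at 0 in both conditions.

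Lepr (chromosome 4, 101390012 to 101487959), the leptin receptor gene that marks perivascular stromal cells of adult marrow, was the lowest of the set. It stood at 0.0407 FPKM with ethanol and 0.270 FPKM with 4-OHT, a level above 41.0% of rows in the latter. Its FPKM ratio of 6.64 rests on values that are both under 0.3 FPKM. Its ligand gene, Lep, is listed at 0 in both conditions. Leprot, the neighbouring gene 58.0 kb before it, was at 21.0 FPKM with ethanol and 41.0 FPKM with 4-OHT.

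Further genes of stromal progenitor and reticular cells were mostly higher as well. Of 18 rows, 12 were compared, 11 were higher in 4-OHT with 8 of them at least 2-fold, and 1 was at least 2-fold lower (10.4% and 2.58% of all compared rows). Of the 12, 4 were under 1 FPKM in ethanol and were compared through their 4-OHT value alone. Cdh11, a cadherin gene of mesenchyme, was at 0.669 FPKM with ethanol and 7.20 FPKM with 4-OHT. Pdpn, the podoplanin gene of reticular cells, was at 3.22 and 17.8 FPKM in the same order. Lpl, the lipoprotein lipase gene, which macrophages also express, was at 110 FPKM with ethanol and 251 FPKM with 4-OHT. Thy1 was near equal, with a log2 ratio of 0.04.

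The transcription factor genes of reticular and mesenchymal cells differed in direction. Foxc1 was lower in 4-OHT, at 2.86 FPKM with ethanol and 0.759 FPKM with 4-OHT, and Ebf3 was at 0.0549 and 0.360 FPKM. Prrx1, a limb mesenchyme factor gene, was at 0.432 FPKM with ethanol and 5.06 FPKM with 4-OHT. Grem1, a BMP inhibitor gene of skeletal stem cells, was at 0.315 and 2.65 FPKM in that order. The label mesenchymal was therefore met by only part of the markers listed for it. Cxcl12, Pdgfra, Pdgfrb, Prrx1 and Grem1 were above 1 FPKM in 4-OHT. Kitl, Lepr, Ebf3 and Foxc1 were under 1 FPKM there, and Foxc1 was lower than in ethanol.

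Vcam1 (chromosome 3, 115812938 to 115832606), the adhesion gene of stromal cells that activated endothelium and marrow macrophages also use, stood at 1.35 FPKM with ethanol and 7.38 FPKM with 4-OHT, 3.56-fold higher. Its counter-receptor on lymphocytes pairs an alpha-4 integrin with a beta chain. Itga4 was lower in 4-OHT, at 53.3 FPKM with ethanol and 36.4 FPKM with 4-OHT. The beta chain genes were higher, with Itgb1 at 60.5 and 93.4 FPKM and Itgb7 at 12.6 and 22.0 FPKM. None of the integrin genes differed by 2-fold.

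The contractile genes had the lowest FPKM ratios beside Kitl. Acta2 (chromosome 19, 34315581 to 34329826), the smooth muscle actin gene, stood at 2.90 FPKM with ethanol and 12.8 FPKM with 4-OHT, 3.53-fold higher. Tagln, the gene of the actin-binding protein transgelin, stood at 1.76 FPKM with ethanol and 5.82 FPKM with 4-OHT, 2.47-fold higher. The FPKM ratios without a pseudocount were 4.40 for Acta2 and 3.31 for Tagln, against 13.6 for Pdgfra. Acta2 went from 3.97 times the level of Pdgfrb in ethanol to 1.29 times in 4-OHT.

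The table gives Tagln a locus of 72.4 kb (chromosome 9, 45671774 to 45744141) that it shares with Pcsk7 and Rnf214. Those genes were near equal between conditions, with Pcsk7 at 10.9 FPKM with ethanol and 12.3 FPKM with 4-OHT and Rnf214 at 7.12 and 6.40 FPKM. The way in which fragments were shared out within that locus is not stated. No row overlapped the loci of the other 9 genes.

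Smooth muscle actin genes are known for CArG boxes, which the factor SRF binds, and the sites of Acta2 are shown for that reason. With 1 central base allowed to differ from A or T, the window before its RefSeq start held 2 matches, which 8.59% of windows hold at least once, and no exact match (1.47% of windows). GENCODE M21 places an Acta2 start further upstream, so only the sites with 10 bases on each side are printed, minus strand, GRCm38.p6, matches in capitals.
Acta2 site from 84 to 75 bases before the start, chr19:34255438-34255467: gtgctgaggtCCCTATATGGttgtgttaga
Acta2 site from 34 to 25 bases before the start, chr19:34255388-34255417: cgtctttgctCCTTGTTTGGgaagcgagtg
The windows of the other genes whose entries were used held no CArG match under this rule. Srf itself was at 11.3 FPKM with ethanol and 13.3 FPKM with 4-OHT, and its muscle coactivator gene Myocd is listed at 0 in ethanol and at 0.00515 FPKM in 4-OHT. In the list of SRF, myocardin and TGF-beta response genes 14 rows were compared, 11 were higher in 4-OHT with 6 at least 2-fold (10.4% of all compared rows), and none was 2-fold lower (2.58%). Of the 14, 3 were under 1 FPKM in ethanol. Ctgf, a response gene that many cell types express, was at 0.893 FPKM with ethanol and 6.06 FPKM with 4-OHT. Smad3 and Smad7 were near equal, 1.06-fold and 1.04-fold lower.

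Among the related actin genes, the muscle genes Acta1, Actc1 and Actg2 stayed under 0.4 FPKM in both conditions. The cytoskeletal genes were abundant, with Actb at 1264 FPKM with ethanol and 1768 FPKM with 4-OHT and Actg1 at 211 and 521 FPKM. Actb was 436 times the level of Acta2 in ethanol and 139 times in 4-OHT. Actin coding sequences are highly alike, so fragments may have been shared between these rows. Tagln2, the leukocyte relative of Tagln, was at 217 FPKM with ethanol and 304 FPKM with 4-OHT, and Tagln3 was at 0.311 and 0.324 FPKM.

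Further contractile, pericyte and smooth muscle genes were mostly low in ethanol. Of 21 rows, 19 were above 0 in both conditions and all 19 were higher in 4-OHT, against 53.1% of all such rows. Of the 10 compared, 8 were at least 2-fold higher, against 10.4% of all compared rows, but 6 of the 10 were under 1 FPKM in ethanol and were compared through their 4-OHT value alone. Mcam, a pericyte and endothelial adhesion gene, was at 1.17 FPKM with ethanol and 11.3 FPKM with 4-OHT, and Cald1, the caldesmon gene, at 1.29 and 9.83 FPKM. Rgs5 and Kcnj8, pericyte genes, were at 0.162 and 0.447 FPKM in ethanol and at 2.17 and 5.03 FPKM in 4-OHT. Tpm1, the most abundant of the list, was at 21.4 and 43.5 FPKM, and Notch3, with the lowest ratio of the 10 compared, at 0.740 and 1.29 FPKM.

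Smooth muscle genes of this list were split in level. Smtn, Myl9, Tpm2 and Mylk were at 9.32, 4.80, 3.61 and 2.44 FPKM in 4-OHT, from 3.18, 0.832, 0.507 and 0.287 FPKM in ethanol. Others stayed low in 4-OHT. Myh11, the smooth muscle myosin gene, was at 0.148 FPKM there, Cnn1, the calponin gene, at 0.251 FPKM and Des, the desmin gene, at 0.494 FPKM. Cspg4, the NG2 gene of pericytes, was at 0.248 FPKM, and Vtn is listed at 0. The pericyte and smooth muscle label was thus met by only part of the markers listed for it. Acta2, Tagln, Rgs5 and Mcam were at 2 FPKM or more in 4-OHT. Cspg4, Des, Myh11 and Cnn1 were under 1 FPKM.

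The highest level of the set was that of an IGF-binding gene. Igfbp3 (chromosome 11, 7106096 to 7113926), which encodes the main IGF carrier of serum, stood at 5.11 FPKM with ethanol and 69.0 FPKM with 4-OHT, 11.5-fold higher. Its level lay above that of 63.2% of all rows in ethanol and 95.8% in 4-OHT. Igfbp5 (chromosome 1, 72904639 to 72921439), a binding protein gene that bone and stromal cells make, stood at 0.667 FPKM with ethanol and 6.04 FPKM with 4-OHT, 4.23-fold higher. Igfbp3 was 7.66 times the level of Igfbp5 in ethanol and 11.4 times in 4-OHT.

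The other family members did not all go the same way. Igfbp7, a vascular and stromal member, was at 4.46 FPKM with ethanol and 46.7 FPKM with 4-OHT, 8.74-fold higher, and Igfbp4 at 14.8 and 49.2 FPKM, 3.17-fold higher. Igfbp4 was the most abundant member in ethanol, and Igfbp3 in 4-OHT. Igfbp2, which lies 5.59 kb before Igfbp5, was lower, at 1.38 FPKM with ethanol and 0.197 FPKM with 4-OHT. Igfbp1, 3.55 kb before Igfbp3, is listed at 0 in both. Igfbp6 was at 0.326 and 0.991 FPKM, and Igfals, which stabilises the serum complex, at 0.0166 and 0.0460 FPKM.

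The growth factor genes that these proteins bind were higher in 4-OHT at very different levels. Igf1, which macrophages express as well, was at 14.3 FPKM with ethanol and 32.8 FPKM with 4-OHT, 2.21-fold higher. Igf2 was at 0.0378 and 0.167 FPKM. The receptor genes Igf1r (1.65 and 2.96 FPKM) and Igf2r (13.2 and 15.8 FPKM) differed by under 2-fold.

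Among all rows, the set lay at the upper end. Of the 10 genes, 8 had a mean of at least 1 FPKM and could be compared, and all 8 were at least 2-fold higher in 4-OHT, against 10.4% of the 10856 compared rows; none was at least 2-fold lower, against 2.58%. Cxcl12, Pdgfra, Pdgfrb and Igfbp5 were under 1 FPKM in ethanol and passed the minimum through their 4-OHT value alone, so that their place among the compared rows was set in part by the minimum. The 4 that were at 1 FPKM or more in ethanol, Vcam1, Acta2, Tagln and Igfbp3, ran from 2.47-fold to 11.5-fold. With no minimum and no pseudocount, all 10 had a deposited fold of at least 2 in the authors' table, as did 24.6% of the 15756 rows above 0 and 21.1% of the 11026 rows whose mean lay within the range of the 10 genes.

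Their order ran from Igfbp3, with 11 of the compared rows above it, over Pdgfrb with 47, Igfbp5 with 126 and Cxcl12 with 131, to Vcam1, Pdgfra and Acta2 with 204 to 212 and Tagln with 596. Vcam1, Pdgfra and Acta2 were within 0.02 of each other on the log2 scale, and without replicates they cannot be ranked. The median log2 ratio was 1.95 for the 8 and -0.07 for all compared rows. Kitl and Lepr, not compared, had log2 ratios of 0.64 and 0.29.

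**Figure D2:**
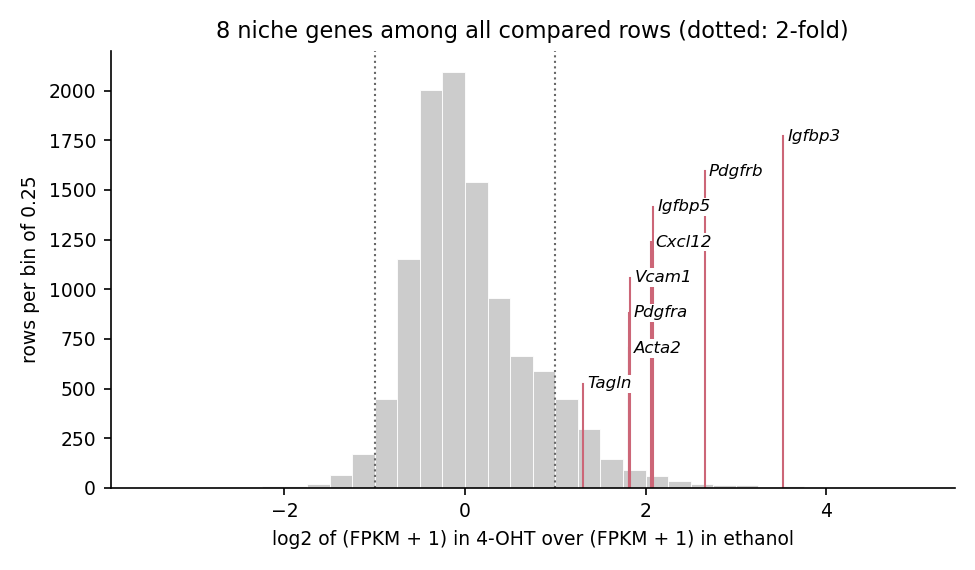
Histogram of the log2 ratio of (FPKM + 1) in 4-OHT over ethanol for the 10856 compared rows (grey, y axis in rows per bin), with red lines at the 8 compared niche genes, whose heights carry no value. All 8 lie to the right of the dotted 2-fold line, from Tagln at 1.30 to Igfbp3 at 3.52.

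The order of the genes turned on the pseudocount. With 1 FPKM added, Pdgfra lay at a log2 ratio of 1.82, level with Acta2 at 1.82. With 0.1 FPKM added, Pdgfra was at 3.33 and Pdgfrb at 3.59. In the authors' deposited table, Pdgfra had the highest log2 fold change of the 10, at 3.77, and Tagln the lowest, at 1.73. Kitl, at 1.82, lay between Tagln and Acta2, at 2.14.

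**Figure D3:**
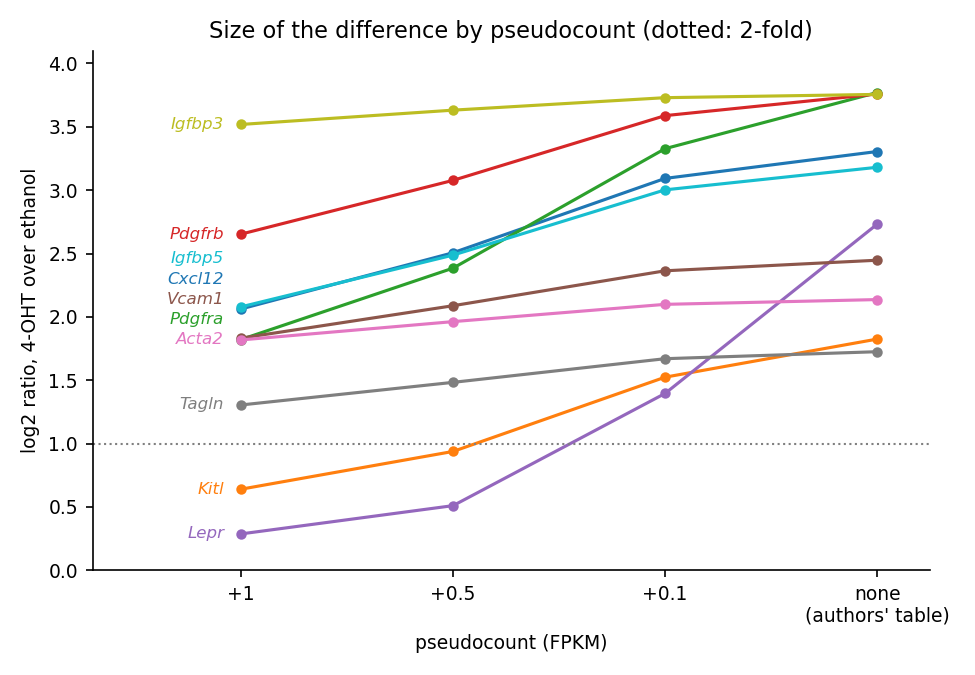
The log2 ratio of each of the 10 niche genes (lines) with 1, 0.5, 0.1 or no FPKM added to both values, the last from the authors' deposited table. Igfbp3 moves from 3.52 to 3.76, whereas Pdgfra, low in ethanol, moves from 1.82 to 3.77 and Lepr from 0.29 to 2.73.

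Markers of other cells were higher in 4-OHT in the same comparison, while B cell genes were lower. The fibroblast matrix list had 13 of 13 compared genes at least 2-fold higher (median log2 ratio 3.60), against 10.4% of all compared rows. Of the 13, 2 were under 1 FPKM in ethanol and were compared through their 4-OHT value alone. This list summed to 86.9 FPKM with ethanol and 891 FPKM with 4-OHT. Its collagen genes Col3a1 and Col1a1 were at log2 ratios of 4.30 and 4.01, above each of the niche genes. The endothelial list had 9 of 9 at least 2-fold higher (median 1.76), of which 6 were under 1 FPKM in ethanol and were compared through their 4-OHT value alone, with sums of 22.4 and 86.8 FPKM. Cdh5, the cadherin gene of endothelium, was at 0.914 FPKM with ethanol and 12.3 FPKM with 4-OHT, an FPKM ratio of 13.4 beside 13.5 for Pdgfrb. Mesenchymal and endothelial marrow cells both make Cxcl12, Kitl and Mcam.

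The macrophage list had 7 of 9 compared genes at least 2-fold higher (median 1.15), against 10.4% of all compared rows. Its sums were 642 FPKM with ethanol and 1424 FPKM with 4-OHT. The neutrophil list had 9 of 9 (median 3.10), with sums of 431 and 3604 FPKM. The B cell list had 10 of 10 lower (median -1.09), where 44.9% of all compared rows were higher. Of the 10, 6 were at least 2-fold lower, against 2.58% of all compared rows. Of these lists no gene was listed at 0 in either condition. The part of any of these cells in the values of the niche genes was not tested.

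Defining genes of the differentiated relatives of marrow stroma were hardly detected. Of the osteoblast list, 3 of 9 rows were compared. Runx2, the lineage factor gene, was at 0.833 FPKM with ethanol and 2.82 FPKM with 4-OHT, and Alpl, which other cells also express, at 34.6 and 23.3 FPKM. Bglap and Dmp1, genes of mature bone cells, were under 0.3 FPKM in both. Sp7 was at 0.0561 FPKM with ethanol and 0.609 FPKM with 4-OHT, and Ibsp at 0.0224 and 0.401 FPKM. Of the 7 osteoblast rows above 0 in both conditions, 3 were higher in 4-OHT and 4 lower, against 53.1% of all such rows higher. By the authors' deposited fold changes those 3 were at least 2-fold higher, against 24.6% of all such rows. In the adipocyte list Fabp4, which macrophages also express, was at 89.6 and 183 FPKM, Pparg at 3.73 and 7.10 FPKM, and Lipe at 3.85 and 8.61 FPKM, whereas Adipoq and Plin1, the defining genes, reached 0.586 and 0.0305 FPKM at most.

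**Figure D4:**
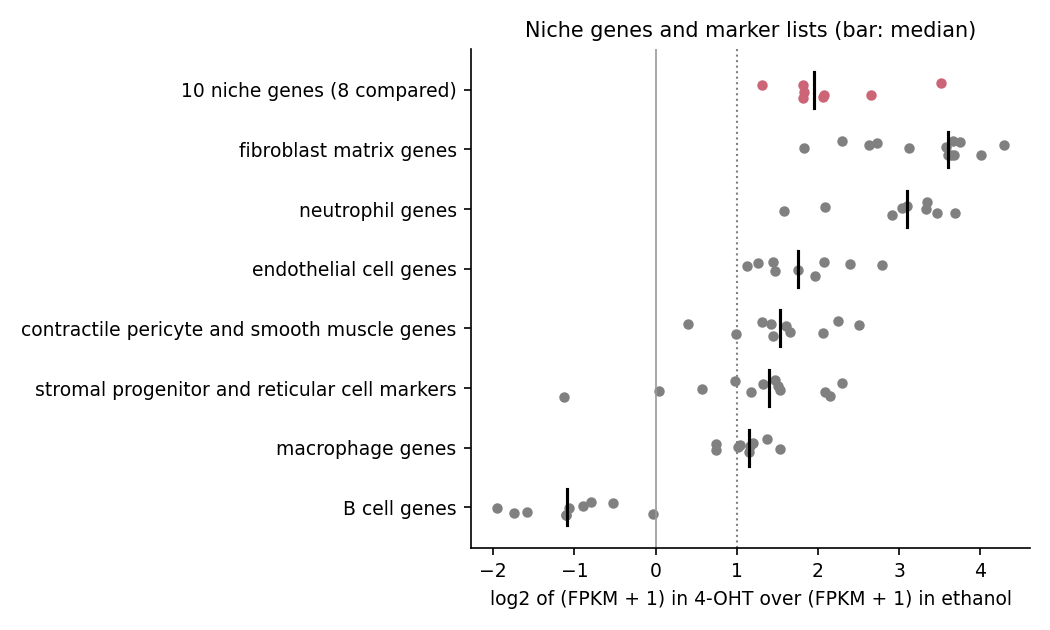
Log2 ratios of compared genes (points; vertical scatter carries no value) in the niche set (red) and in 7 marker lists (grey), with bars at the medians and a dotted line at 2-fold. The median of the niche genes, 1.95, lies below those of the fibroblast matrix list (3.60) and the neutrophil list (3.10). On the scale shown it lies above that of the endothelial list (1.76). That order is reversed by the authors' deposited fold changes, which have no pseudocount. There the median log2 fold change is 2.96 for the whole niche set and 3.38 for the endothelial list. The B cell list lies below 0.

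The genes next to the 10 on the chromosome were listed for comparison. Of the 20 nearest rows, 1 on each side, 11 were compared and 2 were at least 2-fold higher, Kit and Fas, against 10.4% of all compared rows, with a median log2 ratio of 0.68 against -0.07. Fas, the death receptor gene 35.3 kb after Acta2, was at 2.22 FPKM with ethanol and 6.55 FPKM with 4-OHT. Stambpl1, which ends 0.763 kb before Acta2, was lower, at 45.8 FPKM with ethanol and 29.0 FPKM with 4-OHT.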

How the data were processed

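The 6 libraries, 3 per condition, were made with the TruSeq kit for paired-end sequencing, per the labels' protocols. Per the submitters' processing notes, reads came through CASAVA, the build was mm9, and Cufflinks 2.1.1 and TopHat2 2.0.9 were used. The authors deposited 1 FPKM per gene and condition. The way the libraries of a condition were pooled and any scaling between conditions are not stated. The authors' deposited log2 fold changes matched the log2 of the 4-OHT over the ethanol value within 0.01 in all 15756 rows above 0 in both. Zeros may be failed estimates and are reported as listed.

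The groups follow the treatment given in the characteristics. With 1 pooled value per condition, the linear model planned for values per library was not run. Ratios are log2, 4-OHT over ethanol, after 1 was added to each FPKM. Rows entered the comparison with a mean of 1 FPKM or more and no value of 0. The calculation was checked on ethanol values with a known fold change planted, without noise, in rows of at least 5 FPKM. That check does not cover the low ethanol values of most members. Alternatives were pseudocounts of 0.1 and 0.5 FPKM, no minimum, a minimum of 5 FPKM, median-of-ratios scaling, quantile normalization and the authors' deposited log2 fold changes. The members, the 15 gene lists and the rule for naming genes (all members, their partners and relatives, cell type markers, and in each list the 2 highest and lowest ratios and the 2 highest means) were chosen with earlier results of these data known. Fas, Stambpl1 and other neighbours, and further list genes at low values, were chosen after their values were seen. Not every gene the rule picks is named.

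Loci are those of the table on mm9, with 1 added to each start, because 6341 of 18851 loci matched by name then had the length of the RefSeq gene, against 437 otherwise. Promoter sequences are RefSeq's, on GRCm38.p6. Motifs were searched on both strands in the 250 bases before each start (the GGGCGG and CATTCC hexamers, TATAAA or TATATA as TATA boxes, and the CArG box). Python 3.11.15 was used with pandas 2.3.3, numpy 2.4.6 and, for plots, matplotlib 3.10.9.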

Additional observations from a re-analysis of the deposited data

How the results depend on the processing

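Each of the 10 genes was higher in 4-OHT under every alternative that gave it a value. The count of compared members at least 2-fold higher was 8 under each, except with a minimum of 5 FPKM, where only Pdgfrb, Acta2 and Igfbp3 were compared and the count was 3. The share of all rows at least 2-fold higher, 10.4%, was 5.64% with no minimum and 8.61% with the 5 FPKM minimum. It was 8.91% after quantile normalization, 11.6% after median-of-ratios scaling, 12.3% and 13.8% with 0.5 and 0.1 FPKM, and 14.1% with the deposited fold changes. The median log2 ratio of the compared members, 1.95, was 3.05 with a pseudocount of 0.1 FPKM, 2.44 with 0.5 FPKM, 3.24 with the authors' deposited fold changes, 1.83 over all 10 with no minimum, 1.79 after quantile normalization, and 2.65 over the 3 genes left by the 5 FPKM minimum. Median-of-ratios scaling moved it by less than 0.1. The median over all rows compared under the same setting stayed between -0.11 (quantile normalization) and 0 (no minimum). By gene, Igfbp3 ran from 3.49 to 3.76, Pdgfra from 1.61 to 3.77, Lepr from 0.16 to 2.73 and Kitl from 0.35 to 1.82 (log2). Values of single libraries were not used. No paired analysis was possible because each condition has 1 pooled value, and leaving out each library was not run for the same reason. Depth is unknown, so the precision of the low ethanol values cannot be stated.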
